A study of Homo sapiens with 8 samples.

Results

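The let-7 family with miR-98 was followed in small RNA libraries of HEK293, a long-established cell line from human embryonic kidney. Members were the entries of the deposited table whose names start with let-7 or miR-98, which gave 9 of 2867 entries, 903 of them known microRNAs and 1964 predicted ones. All 9 were mature strands from the 5′ arm of their hairpins: let-7a-5p, let-7b-5p, let-7c-5p, let-7d-5p, let-7e-5p, let-7f-5p, let-7g-5p, let-7i-5p and miR-98-5p. The 3′ arms of these hairpins were not analysed here.

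The study had 4 libraries from cells transfected with 100 nM of an ASO (antisense oligonucleotide), a synthetic single strand designed to pair with 1 RNA, and 4 libraries from cells given no ASO (NoASO), all harvested at 48 h. By its library names the target was miR-31, and the stated purpose was to look for effects on other small RNAs. Both groups are of 1 cell line, no group received an unrelated ASO, and the labels say neither whether NoASO cells were mock-transfected nor whether libraries came from separate cultures. The p-values below therefore reflect library-to-library spread, part of which may be technical. In bulk RNA, fewer cells that make a microRNA and less of it per cell cannot be told apart.

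let-7 microRNAs silence messenger RNAs by pairing mainly through the seed, bases 2 to 8 from the 5′ end. They accumulate as cells differentiate, and well-known targets include the RAS oncogenes, HMGA2 and LIN28B, an RNA-binding protein that blocks let-7 maturation in return. Human cells carry several let-7 genes, some in clusters, and identical mature strands can come from different genes.

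The mature sequences show how little separates the members, and so what a read must resolve to be counted for the right one. They are given 5′ to 3′ from RefSeq (GRCh38.p14), which matched all 9 members by name, in order of falling level, with the seed in capitals.
let-7a-5p: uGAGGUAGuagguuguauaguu
let-7f-5p: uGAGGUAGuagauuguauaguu
let-7g-5p: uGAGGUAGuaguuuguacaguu
let-7i-5p: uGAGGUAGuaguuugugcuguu
let-7e-5p: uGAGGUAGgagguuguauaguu
let-7c-5p: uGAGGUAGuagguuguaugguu
let-7b-5p: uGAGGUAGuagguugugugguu
let-7d-5p: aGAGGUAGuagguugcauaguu
miR-98-5p: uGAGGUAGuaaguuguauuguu

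All 9 are 22 bases long and share the seed, so every difference lies outside bases 2 to 8. Counting positions from 1 at the 5′ end, with the base of let-7a-5p first, let-7f-5p differs by G12A, let-7e-5p by U9G and let-7c-5p by A19G, which is 1 base each. let-7b-5p carries A17G with A19G, let-7g-5p G12U with U18C, let-7d-5p U1A with U16C, and miR-98-5p G11A with A19U. let-7i-5p is the most distant from let-7a-5p, with G12U, A17G, U18C and A19U. Position 19 differs from let-7a-5p in 4 members and position 12 in 3. Of the 36 pairs of members, 4 differ at 1 base, let-7b-5p and let-7c-5p being the pair without let-7a-5p, and the widest pair, let-7i-5p and let-7d-5p, differs at 6. let-7d-5p is the member that starts with A. Guanine and cytosine make up 7 of 22 bases in let-7f-5p and miR-98-5p and 10 of 22 in let-7b-5p. RefSeq gives the same seed to 2 further microRNAs, miR-4458 and miR-4500, which were not analysed here.

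The sources used here do not name the aligner or how many mismatches it allowed, so reads of members that differ at 1 base may have been split between them. Whether this occurred was not tested. No 2 members had equal counts in any library. The count of let-7c-5p was the same, 27677, in ASO libraries 2 and 3. The deposited table also lists let-7c-5p with a length of 18, against 22 in RefSeq and in the table for the other 8 members. Among 796 known entries with a RefSeq sequence under the same name, 375 were listed at the length of that sequence. In the same set, 3 were listed 4 or more bases shorter than it.

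The 9 members come from 12 hairpins (RefSeq coordinates, GRCh38.p14, hosts from GENCODE 29 on GRCh38). let-7a-5p can come from MIRLET7A1 (chromosome 9, 94175957 to 94176036, plus strand), MIRLET7A2 (chromosome 11, 122146522 to 122146593, minus strand, in an intron of MIR100HG) and MIRLET7A3 (chromosome 22, 46112749 to 46112822, plus strand). let-7f-5p can come from MIRLET7F1 (chromosome 9, 94176347 to 94176433, plus strand) and MIRLET7F2 (chromosome X, 53557192 to 53557274, minus strand). MIRLET7D (chromosome 9, 94178834 to 94178920, plus strand) follows MIRLET7F1 after 2400 bases, and MIRLET7A1 precedes it by 310 bases, all 3 in an intron of the noncoding gene AL158152.2. MIRLET7B (chromosome 22, 46113686 to 46113768, plus strand) lies 863 bases after MIRLET7A3, both in an exon of MIRLET7BHG. MIR98 (chromosome X, 53556223 to 53556341, minus strand) lies 850 bases from MIRLET7F2 in an intron of HUWE1, which encodes a ubiquitin ligase. The remaining 4 hairpins stand apart from other let-7 genes. MIRLET7G (chromosome 3, 52268278 to 52268361, minus strand) is in an intron of WDR82 and MIRLET7I (chromosome 12, 62603686 to 62603769, plus strand) in an intron of AC048341.1. MIRLET7E (chromosome 19, 51692786 to 51692864, plus strand) is in an intron of SPACA6 and MIRLET7C (chromosome 21, 16539828 to 16539911, plus strand) in an intron of MIR99AHG. The counts cannot say which gene a read of let-7a-5p or let-7f-5p came from.

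Across the whole table, total counts per library were 8168828 to 11677123. The target strand miR-31-5p averaged 837 ± 166 CPM in ASO libraries and 736 ± 305 CPM in NoASO libraries (SD, n = 4 each), so it gave no check of the labels (log2 fold change 0.19, edgeR quasi-likelihood test, adjusted p = 0.851). CPM here are counts scaled to the library total and adjusted with TMM, a factor that evens out differences in composition. No microRNA was taken as defining HEK293. Of 17 markers of blood, liver, muscle, neural, endothelial, mesenchymal and epithelial cells, 13 were analysed, and their summed level was 3993 to 4681 CPM in ASO libraries and 4494 to 4728 CPM in NoASO libraries before TMM scaling. miR-9-5p, of neural cells, made up most of that sum. Over the 8 libraries endothelial miR-126-3p stood at 801 to 907 CPM, mesenchymal miR-143-3p at 88.0 to 114 CPM and epithelial miR-200c-3p at 68.3 to 115 CPM. The liver marker miR-122-5p was the 1 listed marker whose groups did not overlap, at 25.3 to 41.5 CPM in ASO libraries and 10.3 to 14.3 CPM in NoASO libraries on the same scale. After TMM scaling, 8.32% of all entries tested lacked overlap, and miR-122-5p was not called by edgeR at an adjusted p under 0.05. The blood markers miR-142-3p and miR-150-5p, epithelial miR-141-3p and miR-205-5p, and muscle miR-206 were at 0 in at least 6 of 8 libraries. The part of the listed markers in the results below was not tested.

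The family held 13.7% to 14.5% of all counts in every library. It took 14.4%, 14.1%, 13.9% and 14.2% of counts in ASO libraries 1 to 4, against 13.7%, 14.3%, 14.5% and 14.5% in NoASO libraries 1 to 4. The groups overlapped, with means of 14.2% ± 0.228 in ASO libraries and 14.2% ± 0.376 in NoASO libraries (SD, n = 4 each). After TMM scaling the summed level was 141930.1 ± 5452 CPM in ASO libraries and 143838 ± 2161 CPM in NoASO libraries, a difference of −1908 CPM, which is less than the SD of either group. ASO library 1 stood highest at 150101 CPM and the other 3 ASO libraries lay between 138987 and 139521 CPM, below all 4 NoASO libraries (142419.7 to 146997 CPM). The highest library exceeded the lowest 1.08-fold.

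let-7a-5p was the most abundant member and, with let-7f-5p, supplied most of the family. let-7a-5p made up 33.9% ± 0.616 of the family's counts in ASO libraries and 33.3% ± 0.733 in NoASO libraries, and let-7f-5p 26.0% ± 0.276 in ASO libraries and 25.5% ± 0.269 in NoASO libraries (SD, n = 4 each, here and below). Together they held 57.7% to 60.3% over the 8 libraries. let-7g-5p supplied 16.8% ± 0.531 in ASO libraries and 16.3% ± 1.22 in NoASO libraries, let-7i-5p 11.1% ± 0.743 in ASO libraries and 13.3% ± 2.29 in NoASO libraries, and let-7e-5p 6.60% ± 0.470 in ASO libraries and 6.48% ± 0.240 in NoASO libraries. The other 4 members, let-7c-5p, let-7b-5p, let-7d-5p and miR-98-5p, together gave 5.63% ± 0.197 in ASO libraries and 5.25% ± 0.401 in NoASO libraries. Each of these 4 held 0.881% to 1.83% in any library. For all 9 shares the 4 ASO libraries overlapped the 4 NoASO libraries, and the shares were described without a test.

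**Figure D1:**
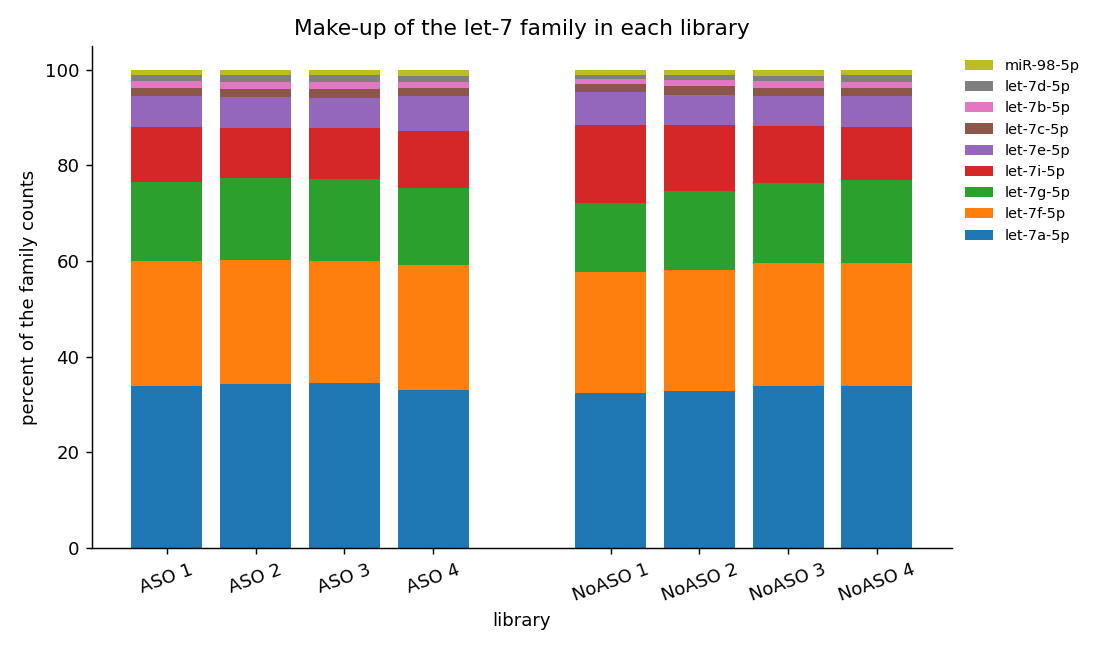
Share of each member in the family's counts (vertical axis, percent) for the 4 ASO and the 4 NoASO libraries (horizontal axis), with 1 bar per library. let-7a-5p and let-7f-5p fill 57.7% to 60.3% of each bar, and the let-7i-5p segment is widest in NoASO library 1, at 16.3%.

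Since all 9 sequences have the same length, dividing counts by length leaves their order as it is, although adapter ligation favours some sequences over others and so limits a comparison between members. let-7a-5p, let-7f-5p, let-7e-5p, let-7c-5p and let-7b-5p came in that order in all 8 libraries. let-7a-5p exceeded let-7f-5p by 1.27 to 1.35 times, let-7f-5p exceeded let-7g-5p by 1.48 to 1.74 times, let-7i-5p exceeded let-7e-5p by 1.60 to 2.39 times and let-7e-5p exceeded let-7c-5p by 3.43 to 4.50 times, and the ranges of these neighbours' shares did not overlap across libraries. let-7g-5p exceeded let-7i-5p in 7 of 8 libraries, the exception being NoASO library 1 with 208230 counts of let-7g-5p and 234161 of let-7i-5p. At the low end let-7c-5p exceeded let-7b-5p in all 8 libraries by 1.14 to 1.72 times. let-7b-5p exceeded let-7d-5p in all 8 but by as little as 1.004 times, and let-7d-5p exceeded miR-98-5p in 6 of 8 libraries, so the order of these last 3 is not separated by the spread of their shares. For every 100 counts of let-7a-5p there were 2.71 to 4.11 of let-7d-5p and 3.17 to 4.36 of let-7b-5p, each of which shares a cluster with 1 of the 3 let-7a hairpins.

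**Figure D2:**
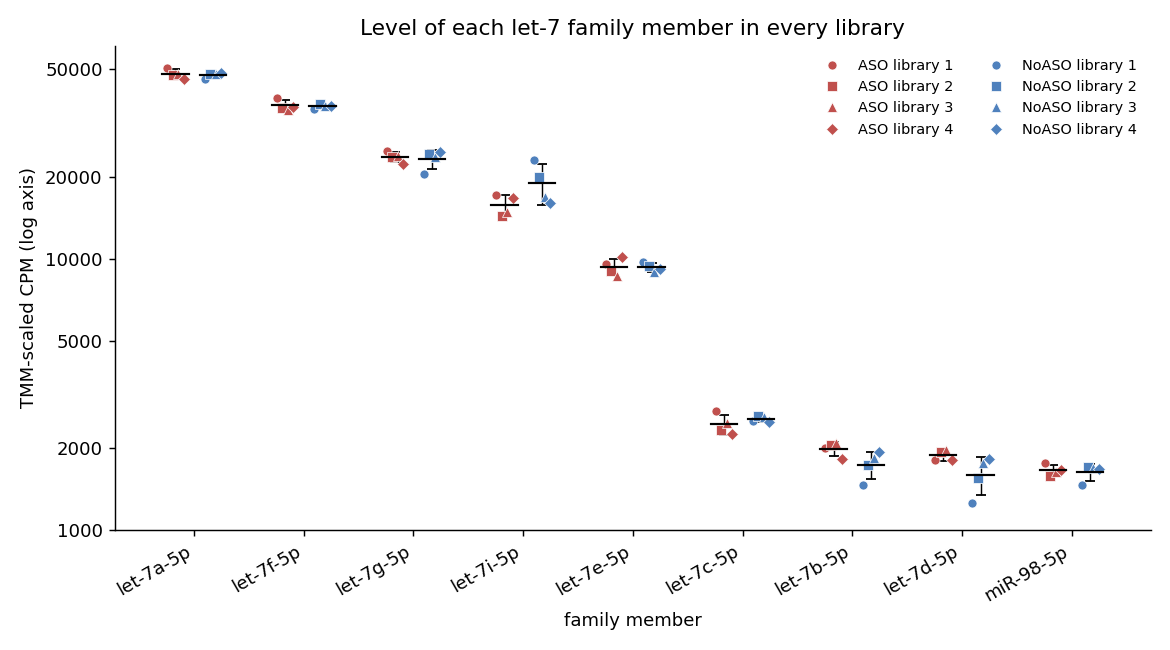
TMM-scaled CPM (log axis) of the 9 members, with 1 point per library, the ASO group left of the NoASO group, bars at the mean and whiskers of 1 SD (n = 4 each). Levels run from 1256 CPM (let-7d-5p, NoASO library 1) to 50762 CPM (let-7a-5p, ASO library 1), and the groups overlap for every member.

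None of the 9 members was called different between ASO and NoASO libraries. All 9 passed the filter on low counts, with at least 12655 counts in each library, and 0 of 9 had an adjusted p under 0.05 in edgeR's quasi-likelihood test, where 1 of 745 entries tested (0.134%) was called. At an unadjusted p under 0.05 the members again numbered 0 of 9, beside 78 of 745 entries (10.5%), and DESeq2 called 0 of 9 where it called 5.45% of the 422 entries it gave an adjusted p. DESeq2 gave 2 members an unadjusted p under 0.05, let-7b-5p and let-7d-5p, with adjusted p of 0.176 and 0.203. The share of all entries at that DESeq2 cut was not computed, so nothing is read from this count. In 0 of 9 members were the ASO and NoASO libraries free of overlap, against 8.32% of all entries tested. At shares this low, counts of 0 among 9 members say nothing particular about the family. The median log2 fold change was 0.01 over the members and 0.01 over all entries, and 7 of 9 members had a fold above 1 beside 51.7% of all entries. That count was 4 of 9 with median-ratio scaling, 5 of 9 with quantile normalization and 3 of 9 among known microRNAs only.

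Of the members, 6 had a log2 fold change within 0.1 of 0, and with quantile normalization 3 did, let-7a-5p, let-7b-5p and let-7d-5p. let-7a-5p stood at 50762, 47699, 47937 and 46177 CPM in ASO libraries 1 to 4, and at 46282, 48279, 48216 and 48717 CPM in NoASO libraries 1 to 4. The ASO libraries held both the highest and the lowest value, and the groups overlapped. Its fold of ASO over NoASO was 1.01, with a 95% interval of 0.937 to 1.08. let-7f-5p, which differs from it by G12A, followed the same pattern, at 39299, 36045, 35570.4 and 36445 CPM in ASO libraries 1 to 4 and 35866, 37269, 36726 and 36724 CPM in NoASO libraries 1 to 4 (fold 1.01, 95% interval 0.935 to 1.08). For both, ASO library 1 was the highest of the 8 libraries. The sign of their log2 fold changes (0.01 each) turned negative with median-ratio scaling, with DESeq2 and in the fit of known microRNAs alone, and with quantile normalization they were 0.04 for let-7a-5p and 0.16 for let-7f-5p.

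let-7e-5p, the member whose U9G change lies next to the seed, averaged 9368 ± 648 CPM in ASO libraries and 9314 ± 337 CPM in NoASO libraries (fold 1.01, 95% interval 0.913 to 1.11), and its log2 fold change turned to −0.25 with quantile normalization. Its highest value was 10172 CPM in ASO library 4 and its lowest 8685 CPM in ASO library 3. let-7g-5p averaged 23779 ± 1029 CPM in ASO libraries and 23396 ± 1878 CPM in NoASO libraries (fold 1.02, 95% interval 0.910 to 1.13), with its lowest value, 20661 CPM, in NoASO library 1, without which its log2 fold change was −0.02, and with quantile normalization it was 0.11. let-7c-5p averaged 2457 ± 209 CPM in ASO libraries and 2564 ± 57.6 CPM in NoASO libraries. Of its ASO libraries, 3 lay below every NoASO library and the fourth, ASO library 1, lay above them all at 2737 CPM, so the groups overlapped (fold 0.958, 95% interval 0.861 to 1.07). With quantile normalization its log2 fold change was −0.11, against −0.06 with TMM. miR-98-5p, made from an intron of HUWE1 beside let-7f-2, averaged 1659.5 ± 79.9 CPM in ASO libraries and 1637 ± 117 CPM in NoASO libraries (fold 1.01, 95% interval 0.909 to 1.13), and quantile normalization gave a log2 fold change of −0.17. Its lowest value was 1463 CPM in NoASO library 1, and the other 3 NoASO libraries lay within 1681 to 1709 CPM.

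The other 3 members, let-7i-5p, let-7b-5p and let-7d-5p, had the widest intervals and the widest spread between libraries. let-7i-5p, the member with the most bases unlike let-7a-5p, stood at 17227, 14426, 14837 and 16740.4 CPM in ASO libraries 1 to 4, and at 23234, 20069, 16899.8 and 16043 CPM in NoASO libraries 1 to 4. NoASO libraries 1 and 2 lay above all ASO libraries, while NoASO libraries 3 and 4 lay within the ASO range. The log2 fold change was −0.27 (SE 0.13, 95% interval −0.57 to 0.03, edgeR adjusted p = 0.445), which is 1.21-fold lower with bounds on the fold of 0.675 and 1.02. Without NoASO library 1 it was −0.15.

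let-7d-5p, whose first base is A, stood at 1807, 1939, 1970.0 and 1815 CPM in ASO libraries 1 to 4, and at 1256, 1553, 1769 and 1829.6 CPM in NoASO libraries 1 to 4. NoASO libraries 1, 2 and 3 lay below all ASO libraries and NoASO library 4 lay among them. The log2 fold change was 0.23 (SE 0.12, 95% interval −0.04 to 0.51, edgeR adjusted p = 0.459), or 0.15 without NoASO library 1 and 0.09 with quantile normalization.

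let-7b-5p, which shares A19G with let-7c-5p, stood at 2004, 2056, 2088 and 1822 CPM in ASO libraries 1 to 4, and at 1466, 1729, 1844 and 1934 CPM in NoASO libraries 1 to 4. NoASO libraries 1 and 2 were lowest, and NoASO libraries 3 and 4 lay within the ASO range. The log2 fold change was 0.19 (SE 0.09, 95% interval −0.03 to 0.41, edgeR adjusted p = 0.445), and 0.04 with quantile normalization. Over the 9 members the 95% intervals reached at most from a 1.48-fold lower to a 1.42-fold higher level in ASO libraries.

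**Figure D3:**
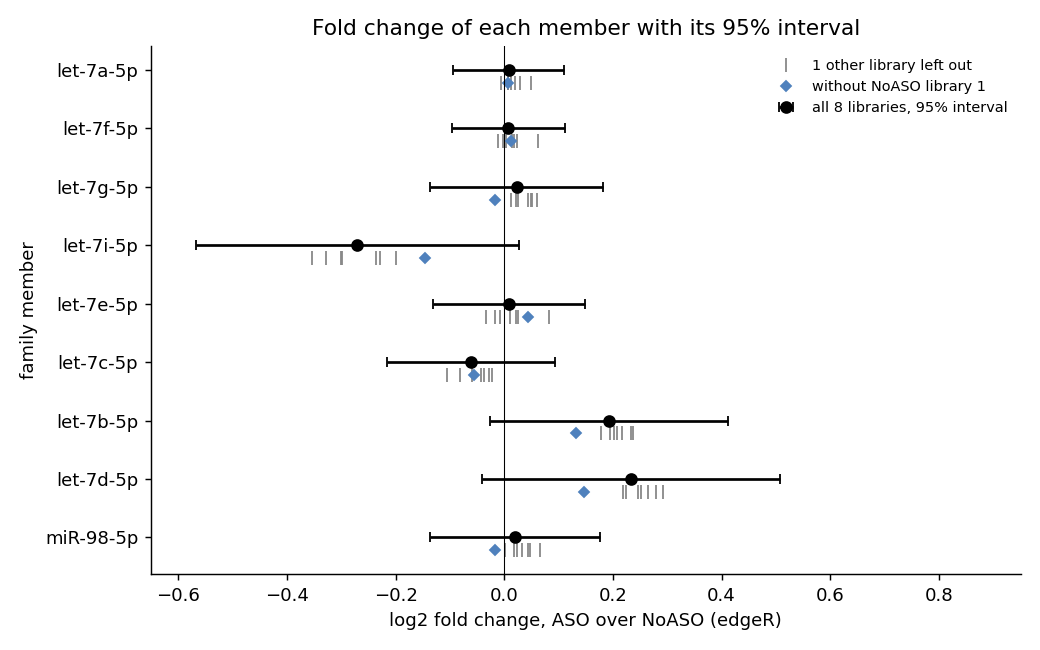
Log2 fold change of ASO over NoASO for each member (black point, bar of the 95% interval from edgeR), with the value when 1 library is left out below it (grey ticks, or a blue diamond for NoASO library 1). All 9 intervals include 0, and leaving out NoASO library 1 brings let-7i-5p to −0.15 and let-7d-5p to 0.15.

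Counting error was smaller than these spreads. The lowest share of any member, 0.881% for let-7d-5p in NoASO library 1, had a Wilson 95% interval of 0.866% to 0.897%, while its share ran from 0.881% to 1.42% over the 8 libraries. Such an interval leaves out the extra error of PCR copies, which are not separate molecules.

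The steadiness of the members differed. Across all 8 libraries the SD of log2 level was 0.04 for let-7a-5p and let-7f-5p, 0.07 for let-7e-5p, 0.08 for miR-98-5p, 0.09 for let-7c-5p and let-7g-5p, 0.17 for let-7b-5p, 0.21 for let-7d-5p and 0.23 for let-7i-5p. The median SD was 0.36 over all 745 entries and 0.16 over the 84 entries with a mean count of at least 10000. Among those 84, 2 had a smaller SD than let-7a-5p and 53 a smaller one than let-7i-5p. Thus, with TMM scaling, the 2 members that supply most of the family were among the steadiest abundant entries, and let-7i-5p was not. These SDs were not computed under other scalings. With quantile normalization the SE of the log2 fold change was 0.049 for let-7a-5p, 0.098 for let-7f-5p and 0.106 for let-7i-5p. In the main fit it was 0.044, 0.045 and 0.128.

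NoASO library 1 held the highest or lowest value of the NoASO group for every member except let-7c-5p. It held 1.31 times the mean let-7i-5p level of the other 3 NoASO libraries, but 0.731 times their let-7d-5p, 0.798 times their let-7b-5p, 0.850 times their let-7g-5p and 0.863 times their miR-98-5p. For let-7a-5p, let-7f-5p, let-7e-5p and let-7c-5p it was within 0.956 to 1.06 times. Even so, it was the lowest NoASO library for let-7a-5p and let-7f-5p and the highest for let-7e-5p. The NoASO levels of let-7i-5p fell step by step from library 1 to 4, and those of let-7b-5p and let-7d-5p rose. The remaining members showed no such order. Outside the family, miR-31-5p, miR-125a-5p and miR-125b-5p also rose from NoASO library 1 to 4, and miR-99a-5p and miR-100-5p fell. In NoASO library 2 let-7i-5p was again above its mean over the 8 libraries and let-7b-5p and let-7d-5p below theirs, while in ASO libraries 2 and 3 let-7i-5p was below its mean and let-7b-5p and let-7d-5p were above theirs. NoASO library 4 had the same signs as ASO libraries 2 and 3. The opposition did not hold in every library. In ASO library 4 and NoASO library 3 let-7i-5p and let-7b-5p both lay slightly below their means, with let-7d-5p above its own. In ASO library 1 let-7i-5p was near its mean, at −0.001 on the log2 scale, with let-7b-5p and let-7d-5p above theirs. The cause of the opposed movement was not tested.

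**Figure D4:**
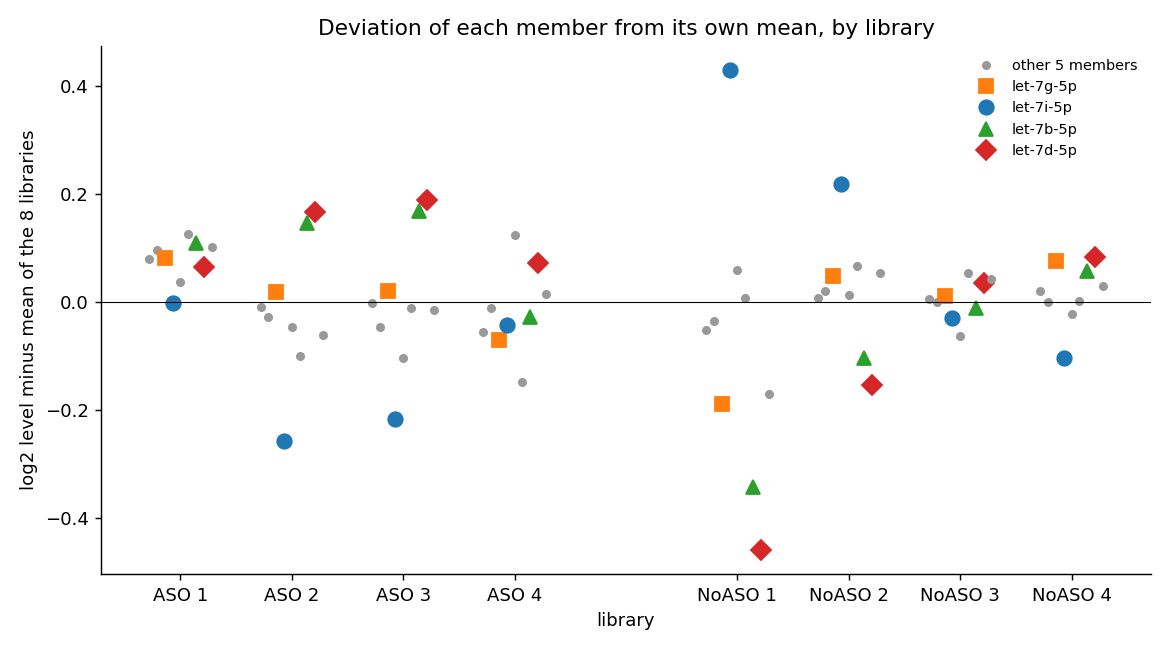
Log2 TMM-scaled level of each member minus its mean over the 8 libraries (vertical axis), by library (horizontal axis), with 4 members in colour and the other 5 in grey. let-7i-5p lies highest and let-7d-5p lowest in NoASO library 1, and the reverse holds in ASO libraries 2 and 3.

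Several let-7 hairpins share their primary transcript with hairpins of the miR-99/100 and miR-125 families, so levels of these are given beside them. Of the 3 hairpins of let-7a-5p, only MIRLET7A2 lies near MIR100, so let-7a-5p and miR-100-5p together do not read 1 locus. Of that list (miR-100, miR-99a, miR-99b, miR-125a, miR-125b and miR-4763), 4 entries were analysed, and 0 of 4 passed the threshold in either direction, where 0.134% of all entries did, so that count says nothing particular about them. Beside let-7e, MIR125A lies 389 bases downstream on chromosome 19 (51693254 to 51693339). miR-125a-5p averaged 11551 ± 1595 CPM in ASO libraries and 9094 ± 1752 CPM in NoASO libraries (log2 fold change 0.35, edgeR adjusted p = 0.445), beside 0.01 for let-7e-5p. The ratio of let-7e-5p to miR-125a-5p counts was 0.971, 0.728, 0.652 and 0.959 in ASO libraries 1 to 4, against 1.41, 1.10, 0.869 and 0.859 in NoASO libraries 1 to 4. Thus 2 microRNAs of 1 cluster differed in ratio by up to 2.17 times between libraries, and the groups overlapped.

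Beside let-7c, MIR99A lies 658 bases away on chromosome 21 (16539089 to 16539169). miR-99a-5p averaged 1787 ± 119.9 CPM in ASO libraries and 2225 ± 405 CPM in NoASO libraries (log2 fold change −0.32, edgeR adjusted p = 0.445). The ratio of let-7c-5p to miR-99a-5p counts was 1.52, 1.40, 1.43 and 1.16 in ASO libraries 1 to 4, against 0.915, 1.13, 1.34 and 1.34 in NoASO libraries 1 to 4. It was lowest in NoASO library 1, and the groups overlapped.

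In MIR100HG, MIR100 lies 5635 bases from MIRLET7A2 on chromosome 11 (122152229 to 122152308). miR-100-5p averaged 286 ± 15.3 CPM in ASO libraries and 350.4 ± 42.4 CPM in NoASO libraries, without overlap (log2 fold change −0.30, edgeR adjusted p = 0.402), an absence of overlap seen in 8.32% of all entries. let-7a-5p had 154 to 188 counts per count of miR-100-5p in ASO libraries and 114 to 155 in NoASO libraries. miR-125b-5p can come from MIR125B1, which lies 46677 bases from MIRLET7A2, and from a hairpin of the let-7c cluster, whose distance was not measured. Its level averaged 172 ± 25.6 CPM in ASO libraries and 145 ± 32.8 CPM in NoASO libraries (log2 fold change 0.25, edgeR adjusted p = 0.617).

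**Figure D5:**
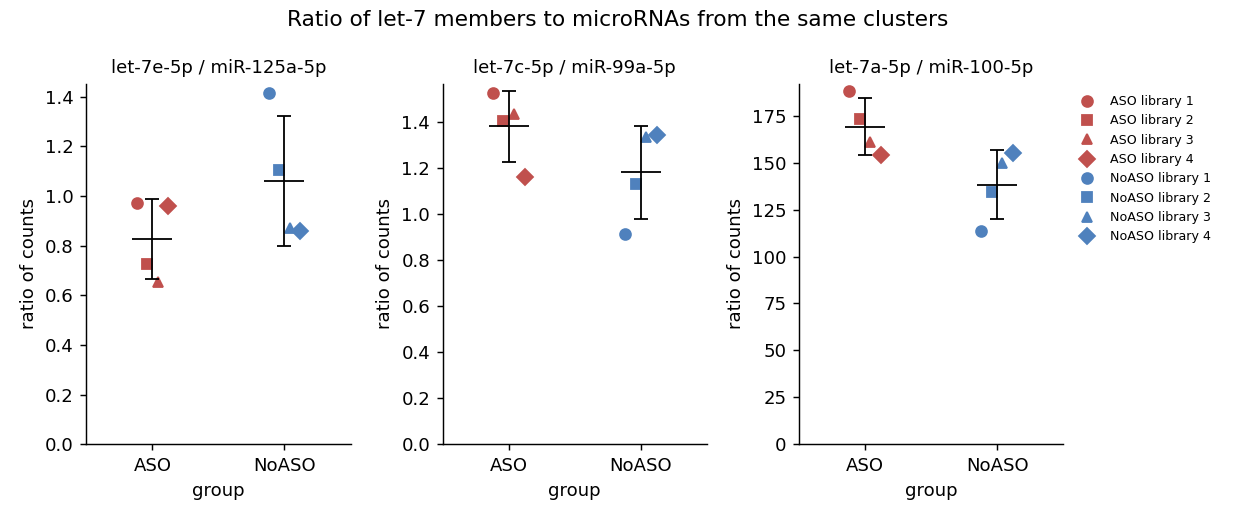
Ratio of counts of a let-7 member to a microRNA whose hairpin neighbours a hairpin of that member (vertical axis, starting at 0). Groups are ASO (left) and NoASO (right), with 1 point per library, the mean and whiskers of 1 SD (n = 4 each). let-7a-5p also comes from hairpins elsewhere. NoASO library 1 has the highest ratio of let-7e-5p to miR-125a-5p (1.41) and the lowest of the 8 in the other 2 panels (0.915 and 114).

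Outside the family, the 5 known microRNAs whose log2 level followed that of the family total most closely over the 8 libraries were miR-676-3p, miR-618, miR-425-5p, miR-1287-5p and miR-450b-5p. Their root mean square distance from the centred profile of the total was 0.04 to 0.05 on the log2 scale, among 311 candidates with a mean count of at least 100 and a median distance of 0.19. miR-676-3p, the nearest, averaged 105.5 ± 1.87 CPM in ASO libraries and 109.7 ± 1.26 CPM in NoASO libraries. By the same measure let-7f-5p lay 0.02, let-7a-5p 0.03, let-7i-5p 0.20 and let-7d-5p 0.21 from the total, to which each of them contributes. A flat profile is near any other flat one, so this likeness is a description of steadiness across these libraries.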

How the data were processed

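Total RNA was extracted with a Qiagen kit and small RNA libraries were made with an NEB kit, per the labels' protocols. bcl2fastq 2.20, Trimmomatic 0.30, edgeR 3.4.6 and the build GRCh38 are named in the submitters' processing notes, while no source used here names the aligner or counter. The authors deposited 1 table of whole-number counts per entry, not normalized. Its columns headed TPM are CPM: each deposited value equals the count scaled to its library total within 0.223 CPM. A deposited length of 18 to 25 accompanies each entry.

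Libraries were grouped by title. The test took entries with a mean count of 10 or more and above 0 in at least 4 of 8 libraries (539 known and 206 predicted). edgeR 4.0.16 (R 4.3.3) fitted the counts with TMM factors of 0.964 to 1.02, trended dispersions and a two-sided quasi-likelihood test, adjusted by Benjamini-Hochberg over all 745 entries at 0.05. The SE was the size of the log2 fold change over the square root of F. Shares used raw counts. Alternatives were DESeq2 1.42.0, limma 3.58.1 on quantile-normalized log2(CPM + 1), other scalings, filters, a replicate block and leaving out each library. The code was tested on simulated data. The text names every member, the cluster partners and the 5 nearest profiles. Members and lists were chosen with earlier results of these data known.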

Additional observations from a re-analysis of the deposited data

Results flagged for a closer look

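Within a group of 4 libraries, 3 values stood far from the other 3 libraries of their group. miR-98-5p was at 1463 CPM (TMM-scaled) in NoASO library 1, and its share of the family there was 1.03%, in both cases the lowest of the NoASO libraries. The family total was 150101 CPM in ASO library 1, the highest of the ASO libraries. The check covered 46 sets of 4 values, and chance flags about 1 in 20 independent sets. These sets are not independent, since the level and the share of a member are related, and both were flagged for miR-98-5p. The number of flags therefore cannot be compared with that rate, and no excess over chance is read from the 3 flags.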

How the results depend on the processing

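No member was called under any of the 16 alternatives, where the smallest adjusted p of a member was 0.176. Of 144 member fold changes under an alternative, 124 kept their sign and 20 reversed, all in let-7a-5p, let-7f-5p, let-7g-5p, let-7e-5p or miR-98-5p. The cause was not tested. The log2 fold change was −0.0026 for let-7a-5p, −0.0031 for let-7f-5p and −0.0030 for let-7e-5p both with median-ratio scaling and with DESeq2, and −0.016 for these 3 and −0.0033 for miR-98-5p among known microRNAs only. With quantile normalization it was −0.25 for let-7e-5p, −0.17 for miR-98-5p, −0.11 for let-7c-5p, 0.16 for let-7f-5p and 0.11 for let-7g-5p. When 1 library was left out it ran from −0.0056 to 0.049 for let-7a-5p, −0.012 to 0.063 for let-7f-5p, −0.018 to 0.059 for let-7g-5p, −0.033 to 0.082 for let-7e-5p, −0.017 to 0.067 for miR-98-5p, −0.35 to −0.15 for let-7i-5p, −0.10 to −0.02 for let-7c-5p, 0.13 to 0.24 for let-7b-5p and 0.15 to 0.29 for let-7d-5p. The family total kept its sign, from −4631 CPM (without ASO library 1) to −854 CPM (without NoASO library 2), and was −2988 CPM with median-ratio scaling and −669 CPM with library totals. The 1 call over all entries became 3 with quantile normalization and limma, 23 with DESeq2, 5 at a mean count of at least 100, 4 among known microRNAs and 0 without a filter, and 0 to 5 when 1 library was left out (0 without NoASO library 2, 5 without NoASO library 4).

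No label says that library numbers mark pairs, and same-numbered libraries deviated together with correlations of −0.02, 0.05, 0.20 and −0.04 across 745 entries. In the fit with a replicate block by library number 0 entries and 0 members were called. Arm shares were not run, since only 5p entries were analysed, so shares among 5p arms equal those reported. Having 4 libraries per group limits precision. Every member had at least 12655 counts in each library, and the sources of the spread between libraries were not separated.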
